A study of Mus musculus with 12 samples.

Results

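The genes described here report on, and restrain, signalling through the MAP kinases ERK1 and ERK2 and were followed across B16.F10 mouse melanoma cells with and without knockdown of Prmt7 and with and without interferon gamma (IFN-γ). They are 10 in number: the transcription factor genes Etv1, Etv4 and Etv5, the phosphatase genes Dusp4 and Dusp6, the Sprouty genes Spry1, Spry2 and Spry4 and the Sprouty-related genes Spred1 and Spred2. The genes were chosen by name from a table of 55418 gene symbols, and all 10 were found. The only measured value in the choice was the mean over the 12 libraries, meant to pick a row where a symbol stood on several, and it was not needed because each of the 10 symbols stood on 1 row. The set was put together with earlier results of these data known, so the tests below describe size against the spread between libraries and are not independent support for the set.

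B16.F10 is a melanoma line from a C57BL/6 mouse, and Prmt7 encodes an enzyme that adds a methyl group to arginine residues of proteins. All cells received small interfering RNA for 72 h, so that the transfection itself is shared by every group. The groups were siPRMT7 cells given IFN-γ for the last 24 h, untreated siPRMT7 cells, control cells with an siRNA against luciferase (siLuc) given IFN-γ for the last 24 h, and untreated siLuc cells, with 3 libraries each. The knockdown was transient and in a single line, and the labels do not say whether the libraries of a group came from separate cultures, so p-values measure the spread between libraries, which may be technical.

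Growth factor receptors activate Ras, which starts a chain of kinases from Raf through MEK to ERK. Active ERK raises transcription of the PEA3 factors Etv1, Etv4 and Etv5, which carry part of its output, and of genes that damp the chain again. Dusp6 encodes a phosphatase that removes phosphate from ERK in the cytoplasm, and the product of Dusp4 does so in the nucleus. Sprouty proteins restrain the signal between receptors and Raf, and Spred proteins bring the Ras inhibitor neurofibromin to the membrane. In melanoma cells the level of these transcripts is widely used as a readout of ERK activity, and Kit, the receptor for stem cell factor, is a main receptor upstream of the chain in melanocytes.

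Values are the authors' regularized log (rlog) values, which are on a log2 scale and already scaled for library size, and a difference of 1 on this scale is a 2-fold change. Library totals ran from 19.0 to 31.0 M reads. Prmt7, the targeted gene, averaged 6.25 ± 0.15 in siPRMT7 cells with IFN-γ and 6.30 ± 0.12 without it, against 10.25 ± 0.02 and 10.25 ± 0.09 in the matching siLuc groups (SD, n = 3). All 10 melanocyte and melanoma markers listed were measured, with mean rlog values up to 17.1 for Tyrp1. Their summed linear level ran from 292700 to 313200 in siPRMT7 cells with IFN-γ, 400600 to 408900 in siPRMT7 cells, 416000 to 440100 in siLuc cells with IFN-γ and 499100 to 520400 in siLuc cells. Of 9 leukocyte, 7 fibroblast, 5 endothelial and 5 keratinocyte markers, 2, 3, 1 and 0 passed a filter of mean rlog 4 or more. The leukocyte markers that passed were Csf1r, with a mean rlog of 8.56, and Cd68, with 6.05. Cd68 averaged 7.16 in siPRMT7 cells with IFN-γ, 6.46 in siPRMT7 cells, 5.31 in siLuc cells with IFN-γ and 5.26 in siLuc cells. The leukocyte markers Adgre1 and Cd3e and the keratinocyte markers Krt1 and Krt10 were at 0 in every library. The summed fibroblast level, most of it Col1a2, ran from 640 to 767 in siPRMT7 cells with IFN-γ, 972 to 1101 in siPRMT7 cells, 265 to 303 in siLuc cells with IFN-γ and 664 to 821 in siLuc cells. Summed endothelial markers, most of it Vwf, were at 55.8 to 58.7, 100.5 to 119.1, 36.5 to 43.0 and 33.3 to 40.9 in these groups in the same order, and leukocyte markers at 569 to 595, 453 to 533, 352 to 410 and 414 to 427. Keratinocyte markers summed to at most 11.9. The part of these changes in the results below was not tested.

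The stretches before the transcription starts of Etv5, Spry2, Dusp6 and Spred2 are shown because of their changes on the rlog scale. In that order, these genes gave the largest fall with IFN-γ, the largest rise with knockdown, the only rise with IFN-γ and the only fall with IFN-γ called weaker after knockdown. Each is the 250 bases upstream of a RefSeq start (build GRCm38.p6), written 5′ to 3′ on the strand of the gene, with matches to the ETS core GGAAG, on either strand, in capitals. They lie at chr16:22439571-22439820 (minus strand, the first of 2 Etv5 starts), chr14:105896820-105897069 (minus strand), chr10:99262981-99263230 (plus strand) and chr11:19924192-19924441 (plus strand). The RefSeq starts of Etv5 and Spred2 lie inside the gene spans deposited by the authors, which begin at 22439719 (minus strand) and 19924375. The stretches of these genes therefore reach into those spans.
Etv5: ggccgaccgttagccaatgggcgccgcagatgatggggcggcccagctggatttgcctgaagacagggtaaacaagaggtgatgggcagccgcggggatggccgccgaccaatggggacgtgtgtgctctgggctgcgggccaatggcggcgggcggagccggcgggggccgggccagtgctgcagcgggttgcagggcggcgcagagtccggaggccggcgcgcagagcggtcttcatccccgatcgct
Spry2: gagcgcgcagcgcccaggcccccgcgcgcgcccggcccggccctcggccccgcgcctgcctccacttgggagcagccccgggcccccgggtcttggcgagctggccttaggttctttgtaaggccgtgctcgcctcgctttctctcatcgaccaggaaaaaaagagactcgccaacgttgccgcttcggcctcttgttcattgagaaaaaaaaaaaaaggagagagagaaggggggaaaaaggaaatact
Dusp6: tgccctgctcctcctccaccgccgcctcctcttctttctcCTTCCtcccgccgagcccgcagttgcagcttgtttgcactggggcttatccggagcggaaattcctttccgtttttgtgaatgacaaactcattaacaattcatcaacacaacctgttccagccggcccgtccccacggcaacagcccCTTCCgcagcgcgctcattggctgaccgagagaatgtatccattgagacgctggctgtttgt
Spred2: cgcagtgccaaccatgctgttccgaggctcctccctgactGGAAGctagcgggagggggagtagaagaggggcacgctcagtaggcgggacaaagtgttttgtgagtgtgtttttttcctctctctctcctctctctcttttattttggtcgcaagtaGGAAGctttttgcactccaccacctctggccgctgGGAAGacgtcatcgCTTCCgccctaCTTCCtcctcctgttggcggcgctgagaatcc

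Windows of 250 bases before to 50 bases after the start were found for 7 of the 10 genes (9 windows, since Etv1 and Etv5 have 2 each), and those of Etv4, Dusp4 and Spry4 were not used here. The ETS core occurred in 6 of the 9 windows, which belong to 6 of the 7 genes, and in 71.4% of all 32851 windows of the same length. In Dusp6 it lies 210 to 206 and 62 to 58 bases before the start, on the opposite strand, and Spred2 has 5 matches within 210 bases. The matches of Etv5 are all at its second start, which is not printed. They lie 236 to 232 and 217 to 213 bases before that start, with others after it. The match of Spry2 lies after its start and so outside the printed stretch. No window of the 7 genes held the octamers TGAATGAA or TGAATGGA bound by the repressor Cic (in 1.30% and 1.21% of all windows), the AP-1 site TGANTCA (7.81%), the cAMP response element TGACGTCA (1.79%) or the interferon gamma activated site TTCNNNGAA (8.30%), each searched on both strands. Of the Cic octamer only the 2 forms named were searched. Forms with C in place of their first G were not searched. Read on the opposite strand, the printed stretch of Spry2 holds such a form of the octamer ending in GAA. That of Dusp6 holds such a form of the octamer ending in GGA. How often these forms occur in all windows was not tested. GC content of the printed stretches was 71.2% for Etv5, 62.4% for Spry2, 56.4% for Dusp6 and 56.0% for Spred2. A match is a description of letters and not a binding site, and these windows say nothing of sites elsewhere.

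IFN-γ lowered 9 of the 10 genes in siLuc cells and raised 1, Dusp6. The comparison asks what the cytokine changes in control cells. On the rlog scale the falls ran from 0.28 for Spred1 to 1.96 for Etv5, which kept 25.7% of its untreated level. On that scale 4 genes (Etv4, Etv5, Spry4 and Spred2) fell at least 2-fold. In the authors' deposited log2 fold changes Etv4 (-2.30) lay below Etv5 (-2.24), and Etv1 (-1.128) and Spry2 (-1.001) also fell at least 2-fold. Differences were tested with limma over the 14407 genes that passed the filter, all 10 among them, and called at a Benjamini-Hochberg adjusted p under 0.05. Of all genes tested 32.7% were called lower and 28.0% higher (quantile normalization gave 3133 higher and 6063 lower, against 4029 higher and 4708 lower as reported). The median difference of the 10 was -0.96, against -0.02 over all genes tested. In RNA from whole cultures, fewer cells carrying a transcript and less of it per cell cannot be told apart.

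After knockdown IFN-γ again lowered 9 of the 10 genes, and none rose. Of all genes tested, 28.6% were called lower and 28.0% higher in siPRMT7 cells with IFN-γ. Etv5 had the largest fall on the rlog scale, to 15.3% of its level in untreated siPRMT7 cells. In the authors' deposited log2 fold changes Spry4 (-3.071) and Etv5 (-3.065) fell alike. Dusp6 was the gene not called (-0.05, 95% interval -0.12 to 0.02, adjusted p = 0.207 by limma). The median of the 10 was -0.86, against -0.0023 over all genes. On the rlog scale Etv4, Etv5, Dusp4 and Spry4 fell at least 2-fold, and Etv1 did so too in the authors' deposited values (-1.03).

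Knockdown itself split the set. Without IFN-γ, 4 genes rose (Etv1, Etv5, Dusp6 and Spry2) and 4 fell (Dusp4, Spry1, Spry4 and Spred1), beside 36.3% and 38.9% of all genes called higher and lower, close to these counts. With IFN-γ in both groups, 3 were higher in siPRMT7 cells (Etv1, Spry2 and Spred2) and 5 lower (Dusp4, Dusp6, Spry1, Spry4 and Spred1), beside 35.9% and 38.7% of all genes. The direction in which more of all genes were called depended on the scaling: median centring gave 6217 higher and 4745 lower with IFN-γ and 5672 higher and 5168 lower without, against 5179 higher and 5578 lower and 5236 higher and 5599 lower as reported. Quantile normalization gave 5623 higher and 5272 lower with IFN-γ. On the rlog scale Spry2 was the only gene to differ at least 2-fold without the cytokine, and Spry2 and Dusp4 did so with it. In the authors' deposited log2 fold changes with IFN-γ, the weakly expressed Spry4 (-1.68) and Spry1 (-1.08) did so too, beside Dusp4 (-1.44) and Spry2 (1.42). The medians of the 10 were 0.11 without IFN-γ and -0.25 with it, against -0.01 in both over all genes. The comparisons share no library, but each shares its groups with the IFN-γ comparisons above.

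**Figure D1:**
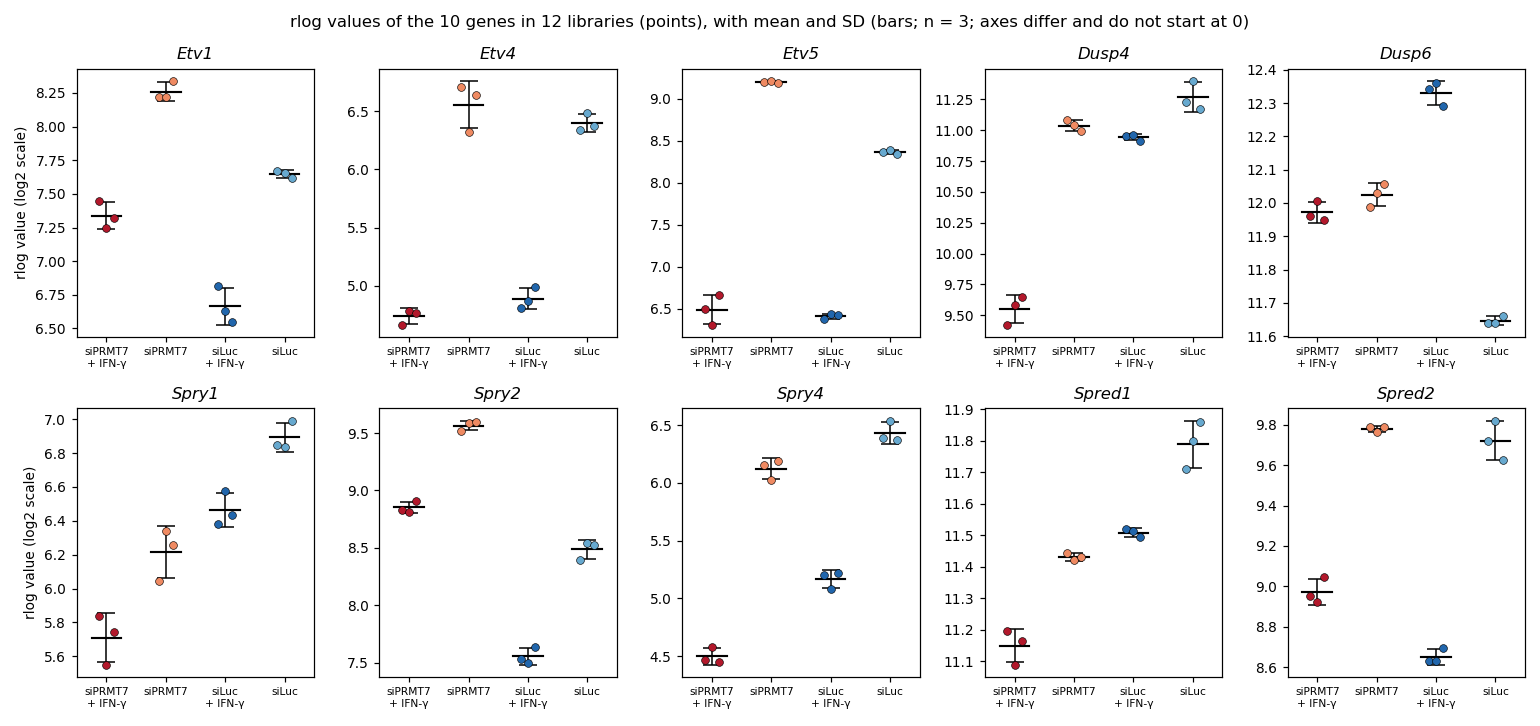
rlog values (log2 scale) of each gene in the 12 libraries, by group, with points for libraries and bars for the mean and SD (n = 3). Etv4 and Etv5 separate by IFN-γ, Spry2 is higher in siPRMT7 than in siLuc cells at both settings of the cytokine, and Dusp6 is highest, at 12.29 to 12.36, in siLuc cells with IFN-γ.

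**Figure D2:**
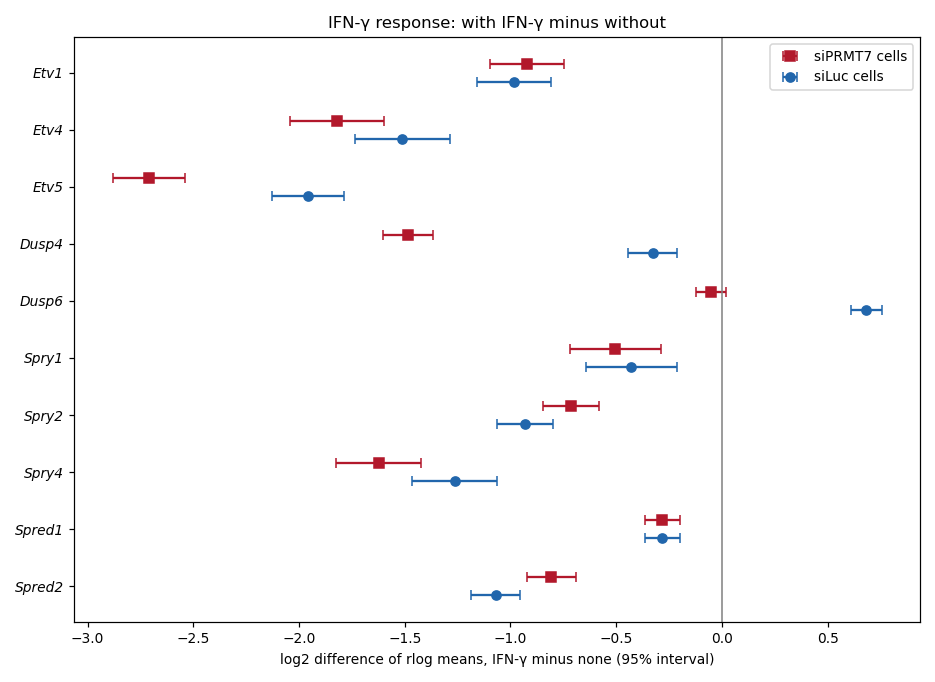
Differences of rlog means (log2), IFN-γ minus none, in siPRMT7 cells (squares) and siLuc cells (circles), with 95% intervals from the limma fit. Dusp6 at 0.68 in siLuc cells is the only value above 0, and the intervals of Etv5, Dusp4, Dusp6 and Spred2 stand apart between siPRMT7 and siLuc cells.

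Etv5, a PEA3 factor that binds ETS sites, is at mm10 chromosome 16, 22381309 to 22439719, minus strand. Its rlog values were 6.50, 6.31 and 6.66 in siPRMT7 cells with IFN-γ, 9.20, 9.21 and 9.19 in siPRMT7 cells, 6.38, 6.43 and 6.42 in siLuc cells with IFN-γ and 8.37, 8.39 and 8.34 in siLuc cells. The untreated groups are clear of each other and of both treated groups, while the treated groups overlap. Knockdown raised Etv5 1.78-fold without IFN-γ (log2 0.83, SE 0.08, adjusted p = 8.52e-09). With IFN-γ the difference was 0.08 (95% interval -0.09 to 0.25, adjusted p = 0.385). With IFN-γ it fell by 2.71 in siPRMT7 cells, and in siLuc cells it fell by 1.96 (SE 0.08 each). The responses differed by -0.75 (SE 0.12, limma adjusted p = 3.25e-05). For the response to IFN-γ, log2 fold changes of -3.07 in siPRMT7 and -2.24 in siLuc cells stand in the authors' deposited table.

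Etv4, the PEA3 family's founding member in the mouse, is at chromosome 11, 101769742 to 101785310, minus strand. Its values were 4.66, 4.78 and 4.77 in siPRMT7 cells with IFN-γ, 6.71, 6.32 and 6.64 in siPRMT7 cells, 4.81, 4.87 and 4.99 in siLuc cells with IFN-γ and 6.34, 6.48 and 6.37 in siLuc cells. Every library with IFN-γ was lower than every library without it. The IFN-γ response of Etv4 was -1.82 in siPRMT7 cells and -1.51 in siLuc cells (SE 0.11, adjusted p = 3.02e-12 and 7.87e-11). Knockdown gave 0.16 without IFN-γ (95% interval -0.06 to 0.38, adjusted p = 0.182) and -0.15 with it (-0.37 to 0.07, adjusted p = 0.213). Quantile normalization turned the first of these to -0.02 and the second to -0.26, which was called (adjusted p = 0.0313), and without replicate 2 of the untreated siPRMT7 group the first was 0.28 and called (adjusted p = 0.0282). The responses differed by -0.31 (95% interval -0.62 to 0.01, adjusted p = 0.132), and by -0.42 without that library (adjusted p = 0.0353). The authors' deposited table has larger IFN-γ responses for this weakly expressed gene, -2.93 in siPRMT7 and -2.30 in siLuc cells.

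Etv1, which is also a lineage factor of the interstitial cells of Cajal, is at chromosome 12, 38780082 to 38870484, plus strand. It had 7.45, 7.25 and 7.32 in siPRMT7 cells with IFN-γ, 8.22, 8.22 and 8.34 in siPRMT7 cells, 6.81, 6.63 and 6.55 in siLuc cells with IFN-γ and 7.67, 7.65 and 7.61 in siLuc cells. No groups overlapped, and the order of levels was untreated siPRMT7, untreated siLuc, treated siPRMT7 and treated siLuc cells. Knockdown raised Etv1 by 0.67 with IFN-γ and by 0.61 without it (SE 0.08, adjusted p = 2.98e-07 and 1.14e-06). The IFN-γ response was -0.92 in siPRMT7 cells and -0.98 in siLuc cells (adjusted p = 4.76e-09 and 1.71e-09), and the difference between these responses was 0.06 (95% interval -0.19 to 0.31, adjusted p = 0.736).

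Dusp4, the nuclear ERK phosphatase gene, is at chromosome 8, 34807297 to 34819894, plus strand. It had 9.42, 9.58 and 9.65 in siPRMT7 cells with IFN-γ, 11.08, 11.04 and 10.99 in siPRMT7 cells, 10.95, 10.96 and 10.91 in siLuc cells with IFN-γ and 11.23, 11.40 and 11.17 in siLuc cells. The cells with both knockdown and IFN-γ stood well below the other 3 groups, whose means lay within 0.33 of each other. With IFN-γ, knockdown lowered Dusp4 2.62-fold (log2 -1.39, SE 0.06, adjusted p = 3.47e-15), and without it 1.17-fold (-0.23, adjusted p = 0.000853). The IFN-γ response was -1.48 in siPRMT7 cells and -0.33 in siLuc cells. On the rlog scale the difference of -1.16 (SE 0.08, adjusted p = 2.29e-10) was the largest of the 10 genes in size. That rank depends on the scale. The authors' deposited responses in siPRMT7 and siLuc cells were -1.52 and -0.30 for Dusp4, and -3.07 and -1.79 for the weakly expressed Spry4.

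Dusp6, the cytoplasmic ERK phosphatase gene, is at chromosome 10, 99263231 to 99267488, plus strand. It had 11.96, 12.01 and 11.95 in siPRMT7 cells with IFN-γ, 11.99, 12.03 and 12.06 in siPRMT7 cells, 12.34, 12.36 and 12.29 in siLuc cells with IFN-γ and 11.64, 11.64 and 11.66 in siLuc cells. The siPRMT7 groups overlapped each other and lay between the siLuc groups. IFN-γ raised Dusp6 1.61-fold in siLuc cells (0.68, SE 0.03, adjusted p = 2.32e-13). The knockdown difference was -0.36 with IFN-γ (adjusted p = 6.53e-09) and 0.38 without (adjusted p = 2.77e-09). The difference of the IFN-γ responses was -0.74 (SE 0.05, adjusted p = 1.49e-10). Under quantile normalization the response of siPRMT7 cells was -0.16 and was called (adjusted p = 0.000438).

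Spry2, a Sprouty inhibitor of receptor tyrosine kinase signalling, is at chromosome 14, 105891947 to 105896819, minus strand. It had 8.83, 8.82 and 8.91 in siPRMT7 cells with IFN-γ, 9.52, 9.58 and 9.59 in siPRMT7 cells, 7.53, 7.50 and 7.63 in siLuc cells with IFN-γ and 8.39, 8.54 and 8.53 in siLuc cells. No groups overlapped, and the siPRMT7 cells were higher even with IFN-γ than the untreated siLuc cells. Knockdown raised it 2.46-fold with IFN-γ (log2 1.30, SE 0.06, adjusted p = 8.04e-14) and 2.11-fold without (1.08, adjusted p = 1.74e-12). The IFN-γ response was -0.71 in siPRMT7 cells and -0.93 in siLuc cells (adjusted p = 2.87e-09 and 3.65e-11). The responses differed by 0.22 (95% interval 0.03 to 0.40, adjusted p = 0.0697). That difference was called under quantile normalization, median centring and library weights (0.24 to 0.26, adjusted p from 0.0290 to 0.0304), without replicate 3 of siLuc with IFN-γ (0.0435) and without replicate 1 of siLuc (0.0276).

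Spry4, a relative of Spry2, is at chromosome 18, 38586247 to 38601415, minus strand. Its values were 4.47, 4.58 and 4.45 in siPRMT7 cells with IFN-γ, 6.15, 6.02 and 6.19 in siPRMT7 cells, 5.20, 5.08 and 5.22 in siLuc cells with IFN-γ and 6.39, 6.54 and 6.37 in siLuc cells. Both changes lowered it and no groups overlapped. The knockdown difference of Spry4 was -0.67 with IFN-γ and -0.31 without (SE 0.10, adjusted p = 2.40e-06 and 0.00665). For the comparison without IFN-γ the adjusted p in the authors' deposited table is 0.0587. The IFN-γ response was -1.62 in siPRMT7 and -1.26 in siLuc cells (adjusted p = 3.81e-12 and 2.87e-10), against -3.07 and -1.79 in the authors' deposited table. The difference of -0.36 missed the threshold (95% interval -0.65 to -0.08, adjusted p = 0.0510) and was called without a variance trend (adjusted p = 0.0120) and when replicate 2 of any of the 4 groups was left out (0.0376 to 0.0454).

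Spry1, a Sprouty inhibitor like Spry2, is at chromosome 3, 37640080 to 37644598, plus strand, and 24.4% of its exon bases lie opposite Gm42922, a gene with a mean rlog value of 1.85 against 6.32 for Spry1. Unless the counting used the strand, reads of the pair cannot be told apart there. It had 5.84, 5.55 and 5.74 in siPRMT7 cells with IFN-γ, 6.04, 6.34 and 6.26 in siPRMT7 cells, 6.38, 6.58 and 6.43 in siLuc cells with IFN-γ and 6.85, 6.84 and 6.99 in siLuc cells. The groups stood in this order from low to high with no overlap. The knockdown difference was -0.75 with IFN-γ and -0.68 without (SE 0.10, adjusted p = 1.18e-06 and 4.81e-06), so that Spry1 and Spry4 moved against Spry2. The IFN-γ response was -0.50 in siPRMT7 and -0.43 in siLuc cells (adjusted p = 0.000268 and 0.00116), and the difference was -0.07 (95% interval -0.38 to 0.23, adjusted p = 0.738).

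Spred1, which recruits neurofibromin, is at chromosome 2, 117121374 to 117182279, plus strand. It had 11.19, 11.09 and 11.16 in siPRMT7 cells with IFN-γ, 11.44, 11.42 and 11.43 in siPRMT7 cells, 11.52, 11.51 and 11.49 in siLuc cells with IFN-γ and 11.71, 11.80 and 11.86 in siLuc cells. The 4 groups stood apart in small steps. The knockdown difference was -0.36 both with and without IFN-γ (SE 0.04, adjusted p = 5.36e-08 and 5.71e-08), and the IFN-γ response was -0.28 under either siRNA (adjusted p = 3.15e-06 and 3.13e-06). The difference of the responses was -0.00158 (95% interval -0.12 to 0.12, adjusted p = 0.987).

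Spred2, of the same family, is at chromosome 11, 19924375 to 20024026, plus strand. It had 8.95, 8.92 and 9.05 in siPRMT7 cells with IFN-γ, 9.79, 9.76 and 9.79 in siPRMT7 cells, 8.63, 8.63 and 8.70 in siLuc cells with IFN-γ and 9.72, 9.82 and 9.63 in siLuc cells. The untreated groups overlapped and the treated ones did not. Knockdown raised Spred2 by 0.32 with IFN-γ (SE 0.06, adjusted p = 2.47e-05), and without it the difference was 0.06 (95% interval -0.06 to 0.17, adjusted p = 0.347). The IFN-γ response was -0.81 in siPRMT7 cells against -1.07 in siLuc cells (adjusted p = 4.82e-11 and 3.83e-13), with a difference of 0.26 (SE 0.08, adjusted p = 0.0146).

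**Figure D3:**
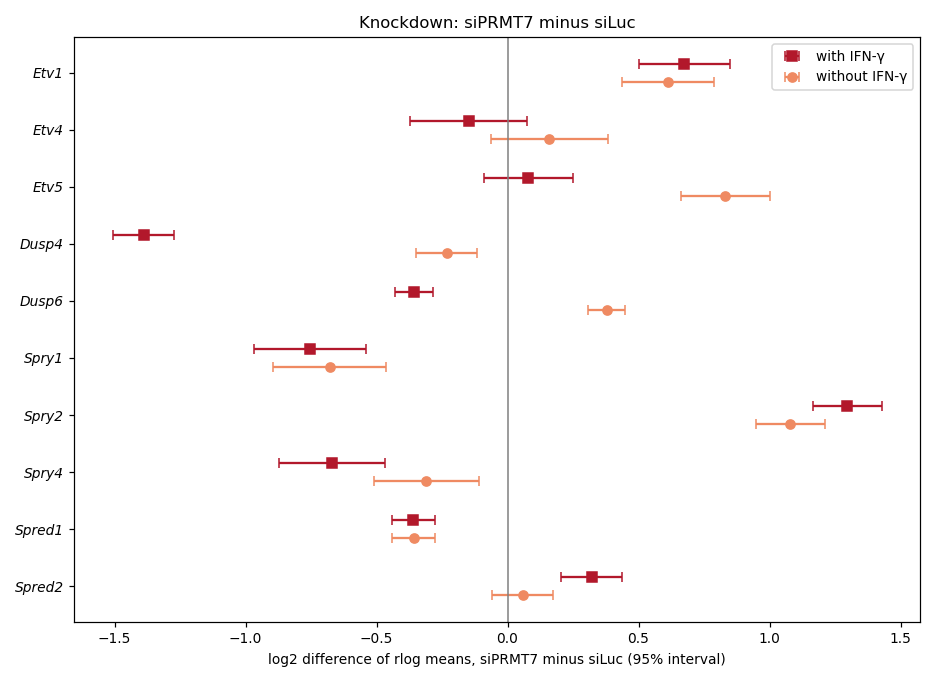
Differences of rlog means (log2), siPRMT7 minus siLuc, with IFN-γ (squares) and without it (circles), with 95% intervals from the limma fit. Spry2 lies at 1.30 and 1.08, Dusp4 at -1.39 and -0.23, and Dusp6 changes sign, at -0.36 with IFN-γ and 0.38 without.

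The test of whether the IFN-γ responses of siPRMT7 and siLuc cells differ thus called 4 of the 10 genes. Etv5, Dusp4 and Dusp6 had lower responses in siPRMT7 cells and Spred2 a higher one, beside 16.5% and 14.1% of all genes tested called lower and higher. Median centring of the libraries changed the split over all genes to 2852 higher and 1993 lower, against 2034 higher and 2381 lower as reported. Where both changes were combined, siPRMT7 cells with IFN-γ against untreated siLuc cells, 8 of the 10 were lower and 2 higher, beside 40.6% of all genes called in each direction. The higher genes were Dusp6 (0.33, SE 0.03) and Spry2 (0.37, SE 0.06), and the falls of at least 2-fold were -1.93 for Spry4, -1.88 for Etv5, -1.72 for Dusp4, -1.66 for Etv4 and -1.18 for Spry1. Etv1 was at -0.31, Spred1 at -0.64 and Spred2 at -0.75.

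Levels can be set against each other only per length, as 2 to the power of the rlog value per kilobase of gene length. On this linear scale, Dusp6 was the highest of the 10 in every group, at 1440 ± 31.0 in siPRMT7 cells with IFN-γ, 1493 ± 36.0 in siPRMT7 cells, 1846 ± 45.8 in siLuc cells with IFN-γ and 1149 ± 9.78 in siLuc cells (SD, n = 3). Spry4 was the lowest, at 4.76 ± 0.23, 14.7 ± 0.90, 7.57 ± 0.39 and 18.2 ± 1.19 in these groups. Spry2 stood at 222 ± 7.6 in siPRMT7 cells with IFN-γ and 364 ± 10.6 in siPRMT7 cells, against 90.3 ± 4.48 and 172 ± 9.45 in the matching siLuc groups, and so was the most abundant Sprouty transcript throughout. Of the PEA3 genes, Etv5 was the highest without IFN-γ, at 149 ± 1.30 in siPRMT7 and 83.8 ± 1.52 in siLuc cells. With IFN-γ Etv5 had 22.9 ± 2.8 and Etv1 24.8 ± 1.8 in siPRMT7 cells, which do not differ beyond their spread. In siLuc cells with IFN-γ Etv5, at 21.5 ± 0.43, lay above Etv1, at 15.5 ± 1.48. The deposited lengths used were 3950 bases for Etv5 and 6551 for Etv1. Their annotated exons cover 4103 and 13296 bases, so the comparison in siPRMT7 cells depends on the length taken, which the SD does not include.

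**Figure D4:**
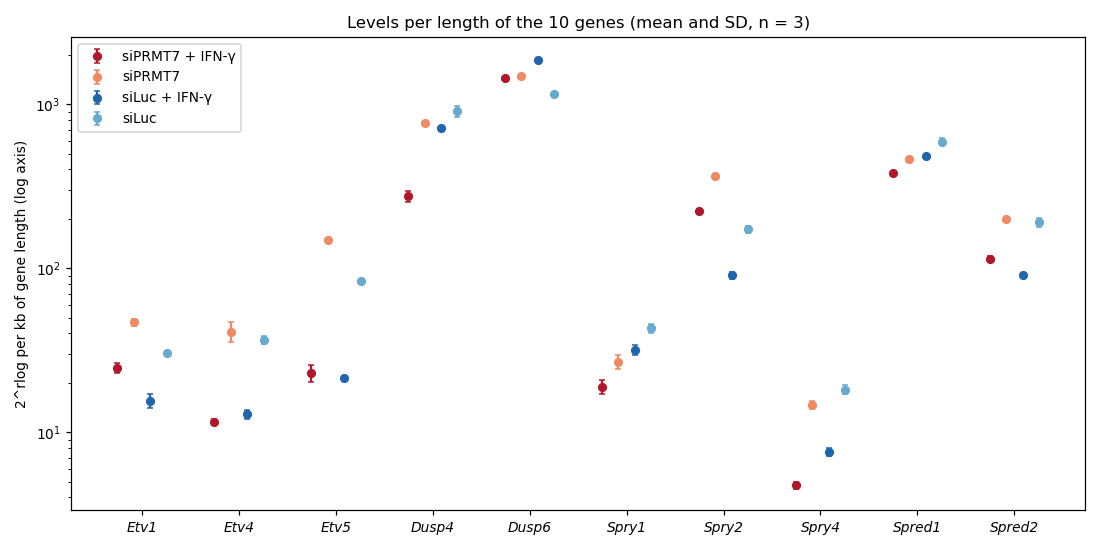
Linear level per kilobase of gene length (log axis) of each gene in the 4 groups, as mean and SD of 3 libraries. Dusp6, Dusp4 and Spred1 are the most abundant of the 10, and Spry4, at 4.76 to 18.2, the least.

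Patterns most like those of the 10 genes were sought among 10636 genes (mean rlog 6 or more), by Pearson correlation over the 12 libraries. The libraries fall into 4 groups, so such a correlation mostly compares group means, and it is given as a description. Closest were Sbk1 and Hmga2 to Etv1 (r = 0.993 and 0.989), Gtse1 and Mmp15 to Etv4 (0.990 and 0.988), and Tm7sf3 and Gja1 to Etv5 (0.996 and 0.990). For Dusp4 they were Arhgap11a and Tln2 (0.989 each), and for Dusp6 Hsd3b7 and Chid1 (0.972 and 0.971), the lowest of the 10. Spry1 was closest to Scml2 and Gcsh (0.984 and 0.983), Spry2 to Enah and Oca2 (0.994 and 0.993) and Spry4 to Prkar2a and Rapgef3 (0.991 and 0.989). Spred1 was closest to Rbm12 and Cse1l (0.994 and 0.993) and Spred2 to Zmat3 and Angptl2 (0.990 and 0.987). No gene of the set was among the closest pair of another, though Etv4 and Spry4 lie below the rlog limit and were not searched as matches.

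The chain upstream of these genes was described by 24 genes for adaptors, Ras proteins, kinases and their scaffolds. Of these, 13 were higher and 4 lower with IFN-γ in siPRMT7 cells and 6 higher and 8 lower in siLuc cells, with median differences of 0.10 and 0.02, against -0.0023 and -0.02 over all genes. Beside the shares of all genes called, 28.0% higher and 28.6% lower in siPRMT7 cells and 28.0% higher and 32.7% lower in siLuc cells, the counts in siLuc cells are near the background. The counts of the other lists, and those with knockdown, stand beside the shares of all genes given above for each comparison. Map2k1, which encodes MEK1, was at 0.47 in siPRMT7 and 0.40 in siLuc cells, both called. With knockdown, 11 were higher and 8 lower in the presence of IFN-γ and 12 higher and 10 lower without it (medians 0.035 and 0.085, against -0.01 in both over all genes), and Nras was at -1.10 and -1.14 and Araf at 0.56 and 0.54. Rasa3, which switches Ras off, responded to IFN-γ with -0.61 in siPRMT7 and -0.19 in siLuc cells, a difference of -0.42 (adjusted p = 1.55e-06).

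Among receptors and ligands, 17 of 24 passed the filter. With IFN-γ 4 were higher and 6 lower in siPRMT7 cells and 5 higher and 6 lower in siLuc cells (medians -0.12 and -0.06). The IFN-γ response of Kit was -2.25 in siPRMT7 and -1.84 in siLuc cells (adjusted p = 2.82e-15 and 1.24e-13), with group means of 5.62 and 7.87 with and without IFN-γ in siPRMT7 cells and 7.03 and 8.87 in siLuc cells. Axl rose with IFN-γ by 1.17 in siPRMT7 and by 0.85 in siLuc cells, and Erbb3, which pairs with Erbb2, rose by 0.55 in siPRMT7 and by 0.66 in siLuc cells. Knockdown left 6 higher and 8 lower with IFN-γ and 5 higher and 7 lower without it (medians -0.20 and -0.09), with Erbb3 at 1.36 and 1.47, Kit at -1.41 and -0.998 and Axl at -0.43 and -0.75.

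Immediate early and growth factor response genes, 21 of 25 measured, moved in both directions. With IFN-γ 12 were higher and 4 lower in siPRMT7 cells and 9 higher and 7 lower in siLuc cells (medians 0.24 and -0.01). Atf3, a stress-induced factor, rose by 1.47 in siPRMT7 and by 2.25 in siLuc cells. Ccnd1, which encodes cyclin D1, responded to IFN-γ with -1.99 in siPRMT7 cells, against -0.47 in siLuc cells, a difference of -1.52 (SE 0.05, adjusted p = 5.23e-15), and like Dusp6 it was lower after knockdown with IFN-γ (-1.08) and higher without (0.44). Klf4, a zinc finger factor, had the opposite difference, 1.92 (SE 0.14, adjusted p = 6.68e-10), with responses of 1.91 in siPRMT7 cells and -0.01, not called, in siLuc cells. Jun, a subunit of AP-1, rose by 0.75 in siPRMT7 and by 1.64 in siLuc cells, and Nr4a1, an orphan nuclear receptor, was at -1.21 and -1.36, both called. Myc was at -1.25 and -0.49 in the knockdown comparisons with and without IFN-γ. In the knockdown comparisons 13 were higher and 5 lower with IFN-γ and 11 higher and 6 lower without it (medians 0.31 and 0.17).

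Of 7 other MAP kinase phosphatases measured of 9, 4 were higher and 2 lower with IFN-γ and 5 higher and 1 lower without in the knockdown comparisons, with medians of 0.80 and 0.90. Dusp8 was at 1.96 with IFN-γ and 1.75 without, Dusp10 at 1.29 and 1.62 and Dusp16 at 0.80 and 0.98; all of these act on JNK or p38 kinases rather than mainly on ERK. With IFN-γ 3 were higher and 3 lower in siPRMT7 cells and 2 higher and 3 lower in siLuc cells (medians -0.12 and -0.18), with Dusp10 at 0.999 and 1.33 and Dusp2 at -0.89 and -0.82. Of 13 other negative regulators measured of 15, IFN-γ left 2 higher and 4 lower in siPRMT7 cells and 3 higher and 4 lower in siLuc cells (medians -0.07 and -0.02), and Errfi1, an EGF receptor inhibitor, was at -0.49 and -0.57. Spred3 rose by 1.03 with knockdown without IFN-γ, and in the knockdown comparisons this list had 5 higher and 4 lower with IFN-γ and 6 higher and 4 lower without it (medians 0.10 and 0.12).

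Other ETS factors and Cic, 15 of 19 measured, had 9 higher and 1 lower with IFN-γ in siPRMT7 cells and 9 higher and 5 lower in siLuc cells (medians 0.22 and 0.13), while the 3 PEA3 genes were lower under either siRNA. Elf1 rose by 1.47 with IFN-γ in siLuc cells and by 1.61 with knockdown alone, and Elk3 was at -0.84 in siPRMT7 and -1.04 in siLuc cells. Cic, which represses PEA3 genes where ERK is inactive, was higher by 0.70 with and by 0.57 without IFN-γ in siPRMT7 than in siLuc cells. In the knockdown comparisons 10 of the list were higher and 2 lower with IFN-γ and 10 higher and 3 lower without (medians 0.33 and 0.20).

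A published score of MAP kinase activity holds 10 genes, 6 of them among those described. Its other genes, Phlda1, Ccnd1, Epha2 and Epha4, were at 0.13, -1.99, -0.80 and -0.59 with IFN-γ in siPRMT7 cells and at -0.13, -0.47, -0.82 and -0.59 in siLuc cells, each called. The whole score list had 1 higher and 8 lower in siPRMT7 cells and 1 higher and 9 lower in siLuc cells (medians -1.14 and -0.70). With knockdown it had 3 higher and 4 lower with IFN-γ and 5 higher and 2 lower without (medians -0.03 and 0.27). Of 15 p38 and JNK cascade genes measured of 16, IFN-γ left 3 higher and 7 lower in siPRMT7 cells and 4 higher and 9 lower in siLuc cells (medians 0.01 and -0.21). Knockdown left 4 higher and 7 lower with IFN-γ and 4 higher and 8 lower without (medians -0.13 in both), with Map2k6, which activates p38, at -1.77 and -2.08.

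**Figure D5:**
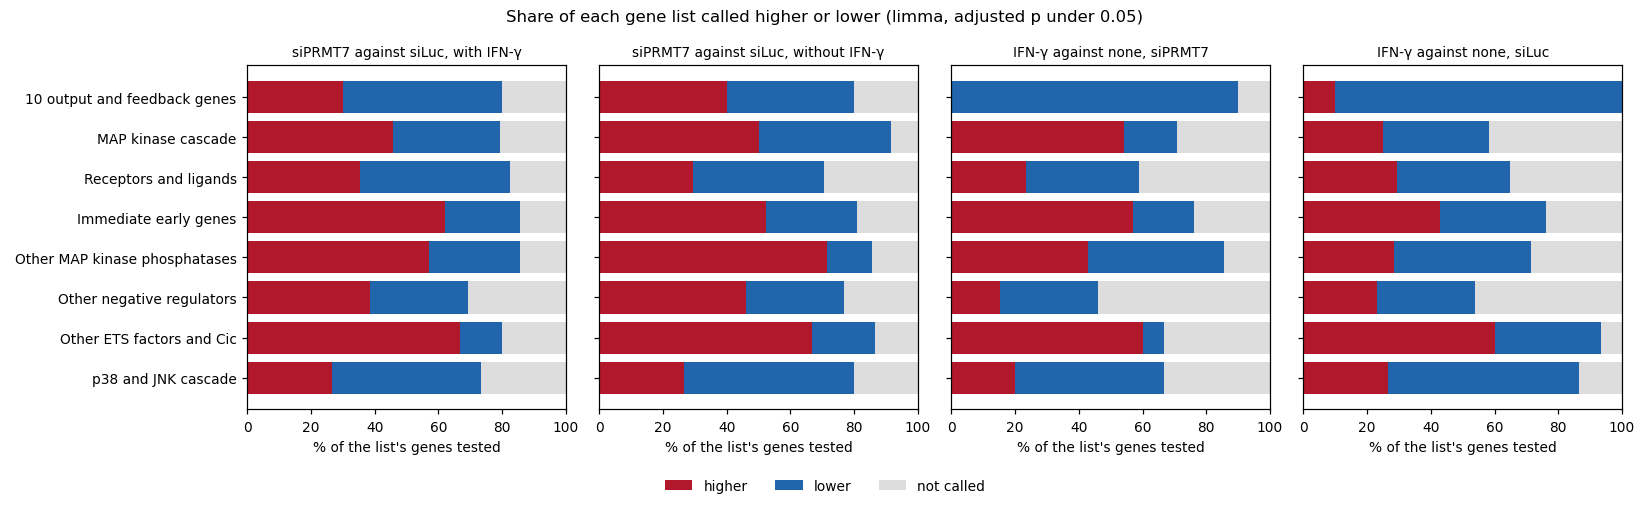
Share of the tested genes of each list called higher (red), lower (blue) or not called (grey) by limma in 4 comparisons. Of the 10 output and feedback genes, 9 are lower after IFN-γ whichever siRNA was used, while of the 24 cascade genes 4 are lower in siPRMT7 and 8 in siLuc cells.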

How the data were processed

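Poly(A) RNA of 12 libraries was sequenced as single reads from a stranded kit, per the labels' protocols. The deposited table gives a value per gene and library on a log2 scale (rlog, per the file headers), made by the authors, with 55536 rows. Trimmomatic 0.39, STAR 2.7.1a, HOMER 4.11.1, DESeq2 1.26.0 and build mm10 are tools and a genome that the submitters' processing notes name without roles. The deposited p-values and log2 fold changes belong, per the file headers, to pairwise comparisons the authors made. Whether counting used the strand is not given. rlog values of weakly expressed genes are drawn toward their mean, so their changes and spread are understated.

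From these values, genes with a mean rlog of at least 4 (14407; for repeated symbols the row with the highest mean) were fitted with limma 3.58.1 (R 4.3.3) on the means of the 4 groups, with trended variance moderation, 2-sided tests, Benjamini-Hochberg adjustment over all genes tested, called under 0.05. The code was tested on simulated data. The members and lists were chosen with earlier results of these data known. Named genes are the 10 members, the 2 genes most like each, and called list genes with the smallest p (up to 3 per list and comparison); the values of Cic, Axl, Myc, Errfi1, Klf4, Jun, Nr4a1 and the score genes in further comparisons were added for completeness after they were seen. A further gene that the rule names is not reported here. Alternatives were quantile normalization, median centring, other filters, no variance trend, library weights, the replicate block and leaving out each library. Promoter windows are from RefSeq (GRCm38.p6).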

Additional observations from a re-analysis of the deposited data

Results flagged for a closer look

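The IFN-γ response differed between siPRMT7 and siLuc cells, by the test of the difference itself (limma, adjusted over all genes tested), for 4 of the 10 genes. Of all genes tested, the same test called 16.5% lower and 14.1% higher. The difference, siPRMT7 minus siLuc on the log2 scale, was -0.751 for Etv5, -1.16 for Dusp4, -0.736 for Dusp6 and 0.263 for Spred2. For Etv5 the responses were -2.71 in siPRMT7 cells and -1.96 in siLuc cells, for Dusp4 -1.48 and -0.33, and for Spred2 -0.81 and -1.07. Dusp6 was at -0.05 in siPRMT7 cells, not called, and at 0.68 in siLuc cells.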

How the results depend on the processing

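Counts of genes called and of the 10 genes called stayed within 1.5 times the reported ones in all 6 comparisons under the 7 other settings and under each of the 12 left-out libraries. Every called difference of the 10 genes kept its direction and its call wherever the gene was tested (Etv4 and Spry4 drop out at a mean rlog of at least 6). The sign changed only for differences that were not called. For Etv4 with knockdown without IFN-γ it became -0.0204 under quantile normalization. The difference of the IFN-γ responses of Spred1 became 0.0433 under median centring and 0.00424 with library weights, and ran from -0.036 to 0.0379 with libraries left out, that of Spry1 from -0.16 to 0.00449, and Etv5 with knockdown in the presence of IFN-γ from -0.00628 to 0.169. The cause was not tested.

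Differences not called as reported became called in 6 cases with other settings and 8 with a library left out. Besides those of Dusp6, Spry2 and Spry4, they were Etv4 with knockdown with IFN-γ under quantile normalization (-0.263, adjusted p = 0.0313) and, without replicate 2 of siPRMT7, Etv4 with knockdown without IFN-γ (0.276, adjusted p = 0.0282) and its difference of responses (-0.425, adjusted p = 0.0353). The median of all genes moved by under 0.1 with either scaling. The labels number the libraries of every group as series 1 to 3 without saying what a series shares. The correlation of deviations from group means of same-numbered libraries ran from -0.124 to 0.224 over 18 pairs (5 over 0.1), and in 23 of 36 settings of a library against the 3 of another group its own number correlated best, a hint of pairing from the data. With the replicate block, 10837 genes were called for knockdown with IFN-γ and 10896 without, 8273 for IFN-γ in siPRMT7 and 8855 in siLuc cells, and the block changed no call of the 10 genes. The deposited values carry no counts, so no counting interval can be given; Etv4, Spry1 and Spry4 had the lowest levels.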
